A study of Homo sapiens with 4 samples.

Results

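The genes described here are 41 genes of the extracellular matrix, of the proteases that cut it and the inhibitors of those proteases, and of the transforming growth factor beta (TGF-beta) and activin ligands that act on matrix genes. They were chosen by gene symbol: 11 collagen genes, 5 laminin and nidogen genes, 12 genes of glycoproteins, proteoglycans and hyaluronan synthesis, 9 protease and inhibitor genes, and 4 genes of ligands and their antagonist. All 41 were found among the 28395 rows of the count table, and 39 passed the filter on low counts. RNA was sequenced from A375 cells, an established human melanoma line labelled as wild type, after 6 h in culture with 0.01% ozonated olive oil or after 6 h with 0.01% olive oil, in 2 libraries for each oil. Plain olive oil is the vehicle, and cells without oil were not analysed here. The libraries of each oil are numbered 1 and 2, and no label says whether they come from separate cultures, so each p-value covers only how far these libraries lie apart, and that spread may be technical.

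The matrix around a cell is a mesh of collagens, laminins and large glycoproteins that cells bind through integrins. Matrix metalloproteinases (MMPs) and ADAMTS proteases cut it, and the tissue inhibitors of metalloproteinases (TIMPs) hold those enzymes in check. TGF-beta and activin are secreted in forms whose activity is set by binding proteins, and through SMAD transcription factors they raise the transcription of many matrix genes. In melanoma, matrix, protease and TGF-beta genes are known as part of an invasive state.

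Library totals ranged from 22245807 to 23571726 counts for the ozonated oil and from 26609495 to 27772480 counts for olive oil. Levels are in CPM, counts scaled to the library total after TMM normalisation. The upper limit behind a count of 0 is 3 counts, or 0.106 to 0.139 CPM by library, and covers counting error only. Of all variance between the libraries, the first principal component (66.4%) separated libraries numbered 2 from those numbered 1, and the second (21.3%) separated the oils. Within the 39 tested members this split was wider than in the table as a whole. The SD of the log2 differences over members was 0.485 and 0.569 between the oils within number 1 and within number 2, and 1.5 and 1.55 between the numbers within the ozonated oil and within olive oil. Over all 14841 tested genes the same SDs were 0.411 and 0.472 between the oils and 0.689 and 0.665 between the numbers. Each comparison of the oils is therefore given within each number as well. The melanoma genes SOX10 and CSPG4 were at 277.8 CPM or more and 275.1 CPM or more in all libraries, while PMEL, MLANA, DCT and TYRP1 lay at 1.35 CPM or less and TYR had no counts. The 8 fibroblast markers summed to 22.8 to 25.2 CPM with the ozonated oil and 20.0 to 23.2 CPM with olive oil. Most of each sum was TWIST2 (8.01 to 11.1 CPM) and PDGFRB (6.44 to 9.29 CPM), while THY1 and DPT lay at 0.212 CPM or less.

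These cells transcribed basement membrane collagen, laminins and matricellular proteins, and hardly any fibrillar collagen I and III. COL1A2 and COL3A1, chains of the fibrillar collagens of skin and tendon, had 4 counts or fewer in each library and were not tested, and COL1A1 had 24 to 54 counts. COL4A1 and COL4A2, the chains of basement membrane collagen IV, were the collagen members with the highest mean CPM: COL4A1 lay at 247 and 189 CPM with the ozonated oil and at 255 and 204 CPM with olive oil (numbers 1 and 2), and COL4A2 at 487 and 424 CPM against 475 and 404 CPM. LAMC1 and LAMB1, laminin chains of most basement membranes, lay at 734 and 599 CPM against 733 and 535 CPM, and at 565 and 678 CPM against 546 and 592 CPM. Per kilobase of the longest transcript, and averaged over the 4 libraries, the highest levels of all members were those of THBS1 (394 CPM per kb), SPARC (242), TIMP1 (216), TIMP3 (117), TNC (109) and LAMB1 (103). The plot of levels by library shows all 39 tested members.

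**Figure D1:**
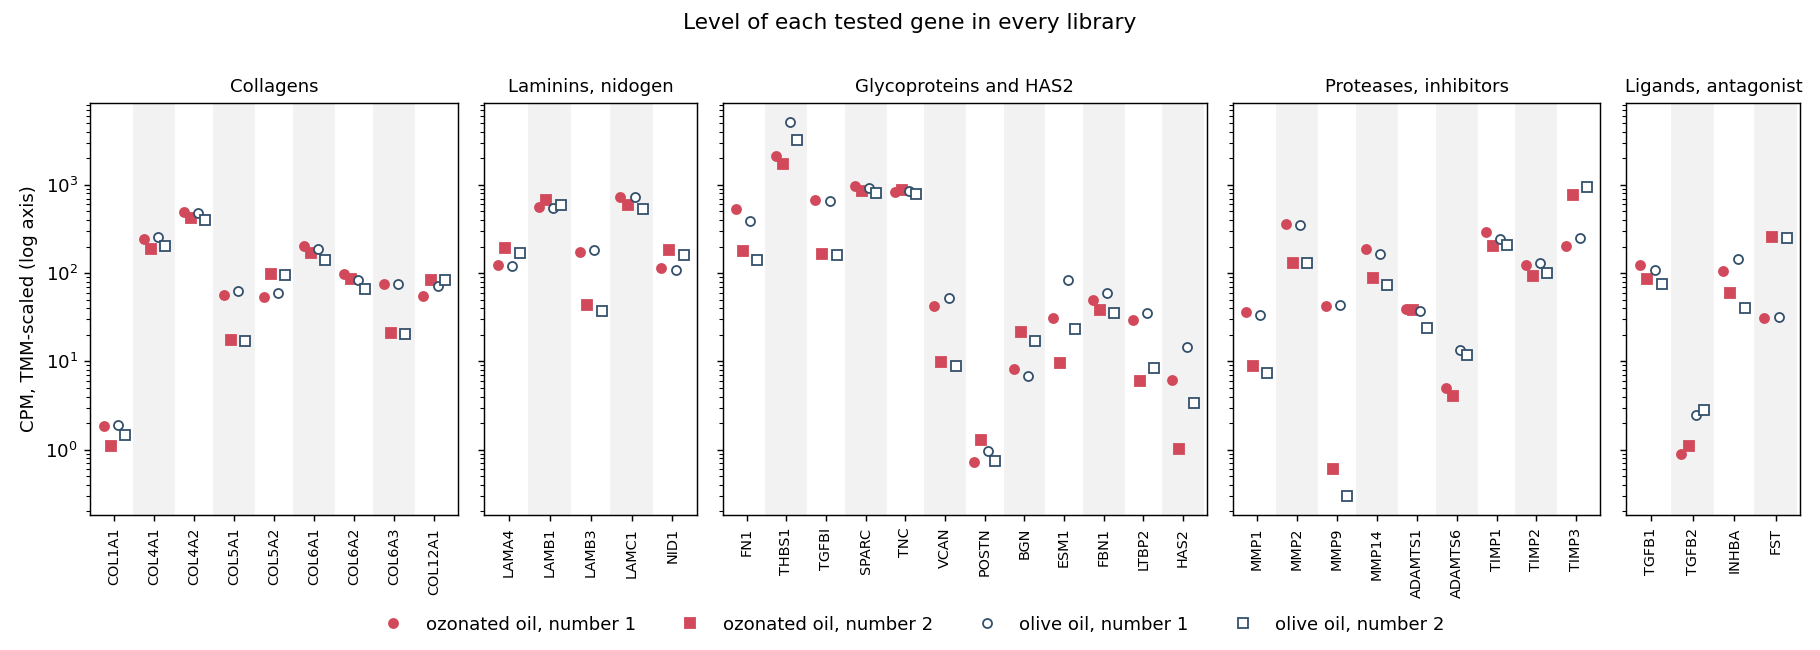
Level of each tested gene in CPM (log axis) in the 4 libraries; red filled symbols are ozonated olive oil, open symbols olive oil, circles libraries numbered 1 and squares libraries numbered 2. Both squares lie below both circles for 24 genes, as for MMP9 with 0.601 and 0.297 CPM in number 2 against 43.0 and 44.0 CPM in number 1. They lie above them for 8, and this separation was not counted over all tested genes. Symbols separate by colour for THBS1, ADAMTS6 and TGFB2, with red lower, and for COL6A2 and ADAMTS1, with red higher. Of all tested genes 15.7% and 15.3% lay so.

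The comparison of the oils asked which matrix genes differ after the ozonated oil. With it, 4 of the 39 tested members lay at least 2-fold lower than with olive oil within both replicate numbers, where 0.526% of all tested genes did: ADAMTS6, TGFB2, ESM1 and HAS2. The members were chosen with earlier results of these data known, so shares of members beside all tested genes, here and below, are descriptions only. THBS1, the most abundant member, was 0.415 times and 0.546 times its olive oil level within number 1 and number 2. No member was 2-fold higher within both numbers, where 0.337% of all tested genes were. Most members differed little: 30 of the 39 had a difference below 0.5 (log2) in size within number 1 and within number 2. Among them were all collagens tested and all laminins, and also MMP1, MMP2, MMP14, the TIMPs, TGFB1 and FST. This was not counted over all tested genes, but the median size of the fitted difference was 0.150 for the members and 0.152 over all tested genes. In RNA from whole cultures, fewer cells of a type and less RNA per cell cannot be told apart.

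The promoters of 4 of these 5 lower genes are shown because the genes differ between the oils in the same direction, and those of FST and TIMP3 because these genes differ most upward between the replicate numbers, as described further on. Sequences are from RefSeq (GRCh38.p14), 5′ to 3′ on the strand of the gene, from 250 bases before to 50 bases after its start. They lie at chr5:65481871-65482170 (ADAMTS6, minus strand), chr1:218345086-218345385 (TGFB2, plus), chr5:54985544-54985843 (ESM1, minus), chr15:39580829-39581128 (THBS1, plus), chr5:53480379-53480678 (FST, plus) and chr22:32801455-32801754 (TIMP3, plus). Capitals mark 3 motifs searched on both strands: TGANTCA, which AP-1 factors bind, GGAATG, which TEAD factors bind, and CAGAC, a core of SMAD binding sites.
ADAMTS6: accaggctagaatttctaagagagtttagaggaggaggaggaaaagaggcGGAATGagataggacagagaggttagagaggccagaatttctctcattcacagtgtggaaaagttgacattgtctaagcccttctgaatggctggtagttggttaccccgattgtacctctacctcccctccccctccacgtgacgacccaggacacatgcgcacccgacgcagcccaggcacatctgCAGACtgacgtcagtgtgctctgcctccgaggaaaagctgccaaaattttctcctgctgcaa
TGFB2: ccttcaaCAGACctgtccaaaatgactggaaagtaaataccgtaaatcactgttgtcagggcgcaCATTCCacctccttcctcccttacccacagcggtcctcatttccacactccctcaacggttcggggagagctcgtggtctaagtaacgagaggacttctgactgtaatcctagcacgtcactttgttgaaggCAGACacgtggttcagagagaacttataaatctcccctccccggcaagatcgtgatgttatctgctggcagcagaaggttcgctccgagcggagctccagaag
ESM1: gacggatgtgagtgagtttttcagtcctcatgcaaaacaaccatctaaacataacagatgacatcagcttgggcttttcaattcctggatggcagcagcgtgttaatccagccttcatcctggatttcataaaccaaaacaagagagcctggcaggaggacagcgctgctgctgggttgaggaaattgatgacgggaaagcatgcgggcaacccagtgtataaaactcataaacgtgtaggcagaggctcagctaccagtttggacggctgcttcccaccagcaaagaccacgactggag
THBS1: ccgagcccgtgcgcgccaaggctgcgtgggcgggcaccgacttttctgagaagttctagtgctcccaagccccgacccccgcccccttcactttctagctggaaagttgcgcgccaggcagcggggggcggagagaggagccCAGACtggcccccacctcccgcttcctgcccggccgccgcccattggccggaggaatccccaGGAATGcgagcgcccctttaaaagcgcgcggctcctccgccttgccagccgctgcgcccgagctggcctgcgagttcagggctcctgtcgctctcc
FST: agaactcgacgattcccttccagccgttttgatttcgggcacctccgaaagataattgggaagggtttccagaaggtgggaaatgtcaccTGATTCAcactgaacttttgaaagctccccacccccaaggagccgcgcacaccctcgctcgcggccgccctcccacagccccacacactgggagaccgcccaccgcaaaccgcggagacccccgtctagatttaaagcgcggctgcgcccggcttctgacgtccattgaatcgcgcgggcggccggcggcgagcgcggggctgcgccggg
TIMP3: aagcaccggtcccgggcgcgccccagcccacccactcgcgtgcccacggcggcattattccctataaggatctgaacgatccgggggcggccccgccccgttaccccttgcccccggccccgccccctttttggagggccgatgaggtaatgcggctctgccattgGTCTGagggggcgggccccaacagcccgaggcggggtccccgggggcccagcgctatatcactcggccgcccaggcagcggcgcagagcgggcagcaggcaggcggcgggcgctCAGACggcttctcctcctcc
GGAATG or its complement began 200 bases before the start in ADAMTS6, 185 in TGFB2 and 46 in THBS1, and it was not in the window of ESM1. Of all 35116 promoters of this length, 14% hold it, and of the 30 members with a promoter listed 6 do, the others being COL12A1, FBN1 and SPARC. CAGAC or its complement stood in ADAMTS6, TGFB2, THBS1 and TIMP3, in 14 of the 30 members and in 45.3% of all promoters. TGANTCA stood in FST, 160 bases before the start, in 3 of the 30 members and in 7.71% of all promoters. A match describes these letters in this window, not a binding site.

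Among the glycoproteins, THBS1 (ENSG00000137801, chromosome 15, 39581079 to 39599466, GRCh38) encodes thrombospondin-1, a secreted protein that binds cells and matrix and can activate latent TGF-beta. It lay at 2148 and 1739.8 CPM in the ozonated oil libraries numbered 1 and 2, against 5179.8 and 3189 CPM in the olive oil libraries. Both ozonated libraries were below both olive oil libraries, as they were for 3 of the 39 members and for 15.7% of all tested genes. The fitted log2 fold change was -1.11 ± 0.26 (SE, unadjusted p = 0.0087 and adjusted p = 0.9998 by edgeR's quasi-likelihood test), -0.72 without the olive oil library numbered 1 and -1.41 without the one numbered 2. Leaving out a library makes the numbers unequal between the oils, so oil and number differences mix in such values, here and below. The antisense neighbour FSIP1, whose exons overlap THBS1, had 36 to 83 counts.

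ESM1 encodes endocan, a secreted dermatan sulfate proteoglycan. It lay at 30.8 and 9.66 CPM with the ozonated oil and at 83.4 and 23.2 CPM with olive oil, numbers 1 and 2 in turn. The groups overlapped because both libraries numbered 2 were low. Within the numbers the log2 differences were -1.44 and -1.26, while the fitted value of -1.40 ± 0.79 (SE) became -0.20 without the olive oil library numbered 1, -2.46 without the ozonated oil library numbered 1 and -0.79 without the one numbered 2. HAS2, the enzyme that spins hyaluronan at the cell surface, had 6.17 and 1.02 CPM with the ozonated oil and 14.6 and 3.37 CPM with olive oil. Its within-number differences were -1.23 within number 1 and -1.66 within number 2, where the counts were 22 and 91, and its fitted value of -1.32 ± 1.03 (SE) became 0.091 without the olive oil library numbered 1 and -2.01 without the one numbered 2, and -3.14 and -0.54 without the ozonated oil libraries numbered 1 and 2. For ESM1 and HAS2 alike, the values with a library left out mix the oil difference with the number difference. The antisense gene HAS2-AS1 overlaps HAS2 and had 2 to 28 counts.

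The other glycoproteins differed less. FN1, which encodes fibronectin, the fibrillar glycoprotein on which much other matrix is assembled, lay at 527 and 180 CPM with the ozonated oil and at 391 and 141 CPM with olive oil, or 0.43 and 0.35 higher on the log2 scale within the numbers. Its fitted value was the highest of the members, at 0.41 ± 0.67 (SE). With a library left out, oil and number differences mix in this value. It was then negative without the olive oil library numbered 2 (-0.15) and without the ozonated oil library numbered 1 (-0.57). Without the remaining libraries it was 1.32 and 0.99. TGFBI, a TGF-beta-induced protein that binds collagen and integrins, differed by 0.069 and 0.024 within the numbers. SPARC, a collagen-binding matricellular protein, lay at 979 and 860.4 CPM against 927 and 818 CPM and differed by 0.080 and 0.073, and TNC, the adhesion-modulating protein tenascin-C, by -0.025 and 0.15. BGN, which encodes the small proteoglycan biglycan, was 0.26 and 0.32 higher. LTBP2, a microfibril-associated protein of the latent TGF-beta binding family, was lower by -0.28 and -0.46. VCAN, the large proteoglycan versican, and FBN1, the microfibril protein fibrillin-1, had differences of opposite sign in the 2 numbers. POSTN, or periostin, lay at 0.723 and 1.29 CPM with the ozonated oil and at 0.956 and 0.742 CPM with olive oil, from 17 to 28 counts.

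Among the proteases, ADAMTS6 (ENSG00000049192, chromosome 5, 65148738 to 65481920, GRCh38), a secreted metalloproteinase with thrombospondin repeats, lay at 5.06 and 4.07 CPM with the ozonated oil and at 13.3 and 11.7 CPM with olive oil. The ozonated libraries were both lower, and the spread within each oil was small: the means were 4.56 ± 0.701 CPM and 12.5 ± 1.15 CPM (SD, n = 2 each). The log2 differences were -1.39 within number 1 and -1.51 within number 2, and the fitted value was -1.46 ± 0.24 (SE, unadjusted p = 0.0019). ADAMTS1, a related protease that cuts versican, lay at 38.9 and 38.5 CPM with the ozonated oil and at 37.2 and 24.1 CPM with olive oil, so that the difference stood within number 2 (0.67) more than within number 1 (0.066).

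For each of the 4 MMPs and 3 TIMPs the fitted difference between the oils was smaller in size than that between the numbers. MMP2, a gelatinase, had within-number differences of 0.033 and 0.0028. MMP14, the membrane-bound protease that activates MMP2, had 0.20 and 0.28. MMP1, the interstitial collagenase, had 0.12 and 0.26. The gelatinase gene MMP9 had -0.033 within number 1 and 0.85 within number 2, the second from 13 and 8 counts. TIMP3, the inhibitor that stays bound to matrix, was lower by -0.31 and -0.30, and TIMP1 and TIMP2 had 0.25 and -0.027, and -0.097 and -0.087.

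Of the ligands, TGFB2 lay at 0.893 and 1.11 CPM with the ozonated oil and at 2.44 and 2.78 CPM with olive oil, from 21, 24, 69 and 75 counts. Both ozonated libraries were lower, with within-number differences of -1.37 and -1.27 and a fitted value of -1.38 ± 0.38 (SE, unadjusted p = 0.015). The level was low: per kilobase, TGFB2 stood at 0.177 and 0.220 CPM with the ozonated oil and at 0.483 and 0.550 CPM with olive oil. TGFB1, the other TGF-beta gene among the members, stood at 44.6 and 31.1 CPM per kb with the ozonated oil and at 39.6 and 27.1 CPM per kb with olive oil. TGFB1 differed by 0.17 and 0.20 within the numbers, and its exons overlap the antisense gene HNRNPUL1, which had 8702 to 10879 counts. INHBA, the subunit of activin A, lay at 105.3 and 59.1 CPM with the ozonated oil and at 143.2 and 40.3 CPM with olive oil. It thus differed by -0.44 within number 1 and by 0.55 within number 2. FST encodes follistatin, which binds and neutralises activin, and differed by -0.052 and 0.035.

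Among the collagens, COL6A2 was the only member of its class for which both ozonated libraries (97.3 and 85.7 CPM) exceeded both olive oil libraries (82.7 and 66.9 CPM), with a fitted value of 0.29 ± 0.15 (SE); of all tested genes 15.3% lay that way. The other fitted values of the class lay between -0.19 (COL1A1) and 0.19 (COL6A1). COL12A1, a collagen that links fibrils, was lower within number 1 (-0.38) and level within number 2 (-0.013). Of the 5 laminin and nidogen genes, 4 were higher within both numbers, by 0.0024 to 0.21, as were 31.6% of all tested genes. LAMB3, the other one, differed by -0.061 within number 1 and by 0.20 within number 2.

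**Figure D2:**
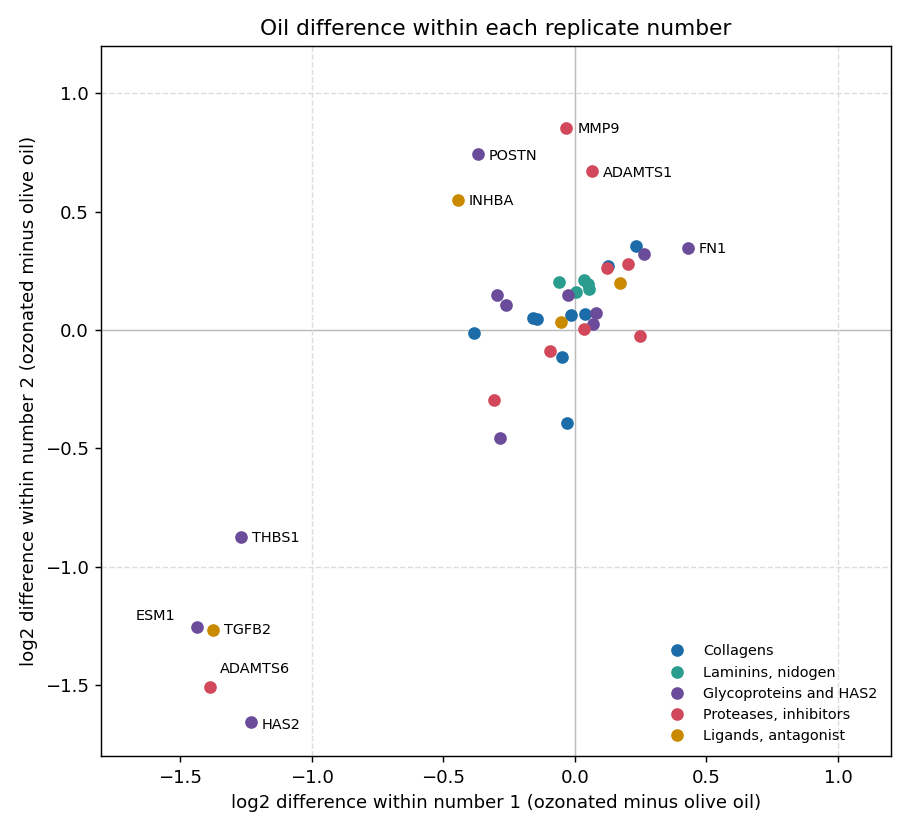
Log2 difference of ozonated minus olive oil within number 1 (x axis) and within number 2 (y axis) for the 39 tested members, coloured by class; dashed lines mark a 2-fold difference. ADAMTS6, TGFB2, ESM1 and HAS2 lie beyond 2-fold on both axes and THBS1 on the x axis, and the collagens and laminins lie near the origin.

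With edgeR and adjustment over the whole table (Benjamini-Hochberg), 0 of the 39 members and 0 of the 14841 tested genes (0%) were called between the oils. In this fit the difference between the numbers counts as spread within each oil, so a gene that was not called is not shown to be level. At an unadjusted p under 0.05 there were 3 members, THBS1, ADAMTS6 and TGFB2, and 3.84% of all tested genes. DESeq2 called 2 members, ADAMTS6 (adjusted p = 0.00246) and THBS1 (adjusted p = 0.00863), both lower, and 0.438% of all tested genes, and limma-voom called 0 members and 0% of genes. The median fitted value of the members was 0.025, against 0.00051 over all tested genes, with 16 members higher and 11 lower within both numbers; of all tested genes 31.6% were higher and 31.1% lower within both.

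Between the replicate numbers the same genes differed far more. Libraries numbered 2 had lower levels of 25 of the 39 tested members and higher levels of 8, where 13.3% of all tested genes were called lower and 11.1% higher (edgeR's quasi-likelihood test, adjusted p under 0.05, with the oil as a term). The collagenase and gelatinase genes, fibronectin, versican and TGFBI were lower in number 2, and follistatin, TIMP3 and biglycan were higher. The median log2 fold change of number 2 over number 1 was -0.38 over the members and 0.0049 over all tested genes. For 32 of 39 members the fitted difference between the numbers was larger in size than that between the oils, against 62.1% of all tested genes, and for 37 of 39 its sign was the same in both oils, against 73.3%. Without the oil as a term 19 members and 6.39% of all tested genes were called. Leaving out each library in turn, also without that term, 14 members (1.6% of all tested genes) were called without the ozonated oil library numbered 1, 17 (4.47%) without the ozonated oil library numbered 2, 13 (1.21%) without the olive oil library numbered 1 and 20 (5.62%) without the olive oil library numbered 2. Among them, 13 members kept the call throughout: COL5A1, COL6A3, LAMB3, FN1, TGFBI, VCAN, LTBP2, MMP1, MMP2, MMP9 and MMP14, all lower, and TIMP3 and FST, both higher. Mitochondrial genes took 1.93% and 1.69% of the counts in number 2 and 2.17% and 1.88% in number 1 (ozonated and olive oil), and the immune markers summed to 45.8 and 33.3 CPM in number 2 against 86.1 and 71.3 CPM in number 1. Nearly all of that was CD68, with 41.7 and 28.4 CPM in number 2 against 81.6 and 66.6 CPM in number 1, with PTPRC and CD3E at 0.17 CPM or less. The keratinocyte markers summed to 95.6 and 101 CPM in number 2 against 117 and 118 CPM in number 1, with DSC3 and KRT14 called lower (-1.55 and -0.64) and TP63 without counts. Most of each sum was KRT10, which was level (-0.0024), with 79.5 and 83.7 CPM in number 2 against 82.1 and 81.5 CPM in number 1. The fibroblast markers summed to 22.8 and 20.0 CPM in number 2 against 25.2 and 23.2 CPM in number 1, with FAP called lower (-2.99, from 2 to 31 counts). PDGFRA and PDGFRB had 0.36 and 0.084, and DCN, LUM and TWIST2 had -0.67, -0.063 and -0.35, none of them called. The melanoma markers summed to 848 and 677 CPM in number 2 against 684 and 612 CPM in number 1, with SOX10, CSPG4, S100B and S100A1 called higher (0.21, 0.25, 1.31 and 1.22). MITF, PMEL and MLANA had -0.26, -0.63 and -0.89, and PAX3, DCT and TYRP1 had 0.31, 0.98 and 0.52, none of them called. The part of these markers and of the mitochondrial share in the difference was not tested.

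**Figure D3:**
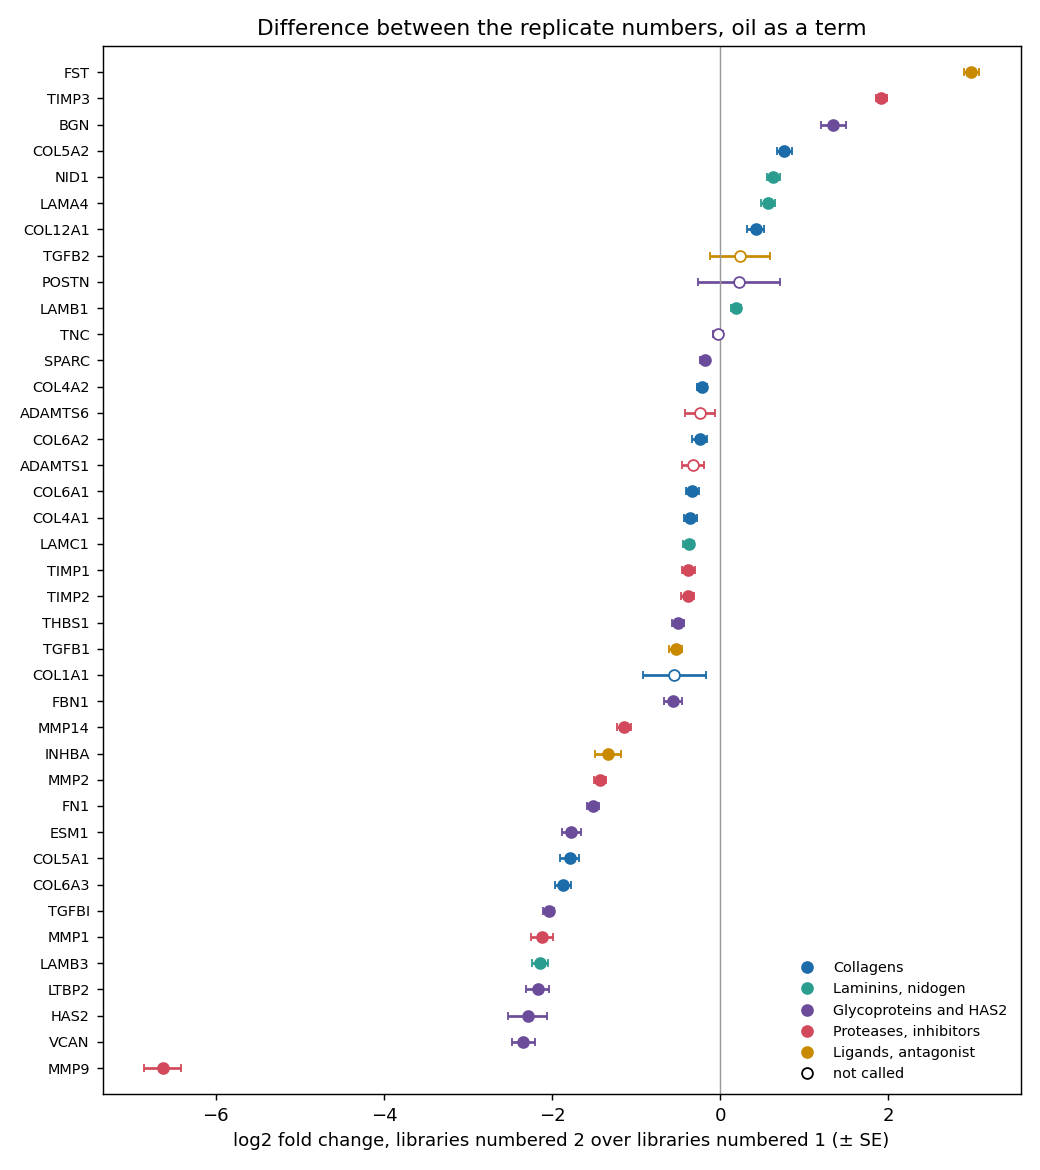
Fitted log2 fold change of libraries numbered 2 over libraries numbered 1 (x axis, bars are SE) for the 39 tested members, coloured by class; open points did not pass the test. MMP9 stands apart at -6.63, and FST lies highest at 2.99.

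The proteases showed the widest range. MMP9 (ENSG00000100985, chromosome 20, 46008908 to 46016561, GRCh38) lay at 0.601 and 0.297 CPM in the ozonated and olive oil libraries numbered 2, against 43.0 and 44.0 CPM in those numbered 1. In counts these were 13 and 8 against 1011 and 1242, a log2 fold change of -6.63 ± 0.22 (SE, adjusted p = 2.68e-12). MMP1 lay at 8.78 and 7.31 CPM in number 2 and at 36.4 and 33.4 CPM in number 1, MMP2 at 131.8 and 131.5 CPM against 357.7 and 349.7 CPM, and MMP14 at 88.0 and 72.5 CPM against 188.9 and 164.4 CPM. All 4 MMP genes among the members were thus lower in both libraries numbered 2, by log2 fold changes of -6.63 to -1.14. Among the other MMP genes, named here after their values were seen, MMP13 was lower (-1.48) and MMP17 and MMP16 were higher (1.78 and 0.28). TIMP3 went the other way, with 762.4 and 936.8 CPM in number 2 against 201.0 and 248.7 CPM in number 1 (1.92 ± 0.063, SE). TIMP1 and TIMP2 were lower by little (-0.38 ± 0.080 and -0.39 ± 0.081, SE). ADAMTS6 and ADAMTS1 did not pass the test (-0.24 ± 0.18 and -0.32 ± 0.13, SE).

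Among the ligands, FST (ENSG00000134363, chromosome 5, 53480629 to 53487134, GRCh38) lay at 253.9 and 247.9 CPM in number 2 and at 31.0 and 32.1 CPM in number 1, which is 7.94-fold higher (log2 fold change 2.99 ± 0.087, SE, adjusted p = 8.33e-13). Its target INHBA was 0.398 times as high in number 2 (-1.33 ± 0.15, SE). Per kilobase, follistatin transcripts stood at 10.3 and 14.7 times those of INHBA in number 2 and at 0.704 and 0.536 times in number 1, in the ozonated and olive oil libraries. TGFB1 was lower (-0.53 ± 0.083, SE), and TGFB2 did not pass the test (0.24 ± 0.35, SE).

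Among the collagen and laminin chains, COL5A1 and COL5A2 differed in opposite directions, as did LAMB3 and LAMB1, while the chains of collagen IV differed alike. COL5A1 and COL5A2 encode the chains of collagen V, which starts and limits the growth of collagen fibrils. COL5A1 lay at 17.6 and 17.0 CPM in number 2 against 56.9 and 62.8 CPM in number 1, while COL5A2 lay at 98.4 and 94.8 CPM against 53.8 and 60.1 CPM. Their ratio per kilobase was 0.149 and 0.150 in number 2 and 0.884 and 0.874 in number 1, nearly the same in both oils. In collagen VI, a microfibril collagen of the cell surface, COL6A3 lay at 21.2 and 20.3 CPM in number 2 against 75.4 and 76.1 CPM in number 1 (-1.87 ± 0.10, SE). The other chains differed by -0.33 ± 0.078 (SE) for COL6A1 and -0.24 ± 0.086 for COL6A2. The collagen IV chains COL4A1 and COL4A2, whose genes lie head to head on chromosome 13 (110148963 to 110307157 and 110307284 to 110513209), differed by -0.35 ± 0.073 and -0.22 ± 0.064 (SE). The laminin beta chain LAMB3, part of the laminin that anchors epithelia, lay at 43.4 and 37.6 CPM in number 2 against 174.9 and 182.5 CPM in number 1 (-2.15 ± 0.092, SE). The widespread beta chain LAMB1 was slightly higher in number 2 (0.19 ± 0.063, SE), and its exons overlap the antisense gene DLD, which had 3123 to 4100 counts. Its call was lost with DESeq2 (adjusted p = 0.189) and by edgeR without the oil as a term (adjusted p = 0.294). That of COL4A2 was lost likewise (adjusted p = 0.112 by DESeq2 and 0.192 by edgeR without the oil as a term). The vascular and muscle alpha chain LAMA4 (0.57 ± 0.081) and the laminin-binding linker NID1 (0.63 ± 0.080) were higher, and the gamma chain LAMC1 was lower (-0.37 ± 0.063, SE).

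Of the glycoproteins 9 of 12 were called lower in number 2 and 1 higher. TGFBI lay at 163 and 160.3 CPM in number 2 against 681.5 and 649.7 CPM in number 1 (-2.04 ± 0.067, SE), and FN1 at 180 and 141 CPM against 527 and 391 CPM (-1.51 ± 0.071, SE). VCAN (9.75 and 8.79 CPM against 42.3 and 51.9 CPM) and LTBP2 (6.06 and 8.34 CPM against 29.2 and 35.5 CPM) were lower by -2.34 ± 0.14 and -2.17 ± 0.14 (SE). HAS2 and ESM1, which lay lower with the ozonated oil, were also lower in number 2, by -2.29 ± 0.23 and -1.77 ± 0.11 (SE), with adjusted p = 0.0788 for HAS2 and 0.107 for ESM1 by edgeR without the oil as a term. THBS1 was lower by -0.50 ± 0.067 (SE), a call lost without the oil as a term (adjusted p = 0.463 by edgeR); leaving out the olive oil library numbered 1, also without that term, gave 0.20. BGN was the exception, at 21.5 and 17.1 CPM in number 2 against 8.25 and 6.87 CPM in number 1 (1.35 ± 0.15, SE). SPARC (-0.18 ± 0.056) and TNC (-0.030 ± 0.061) were nearly level, and TNC did not pass the test.

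**Figure D4:**
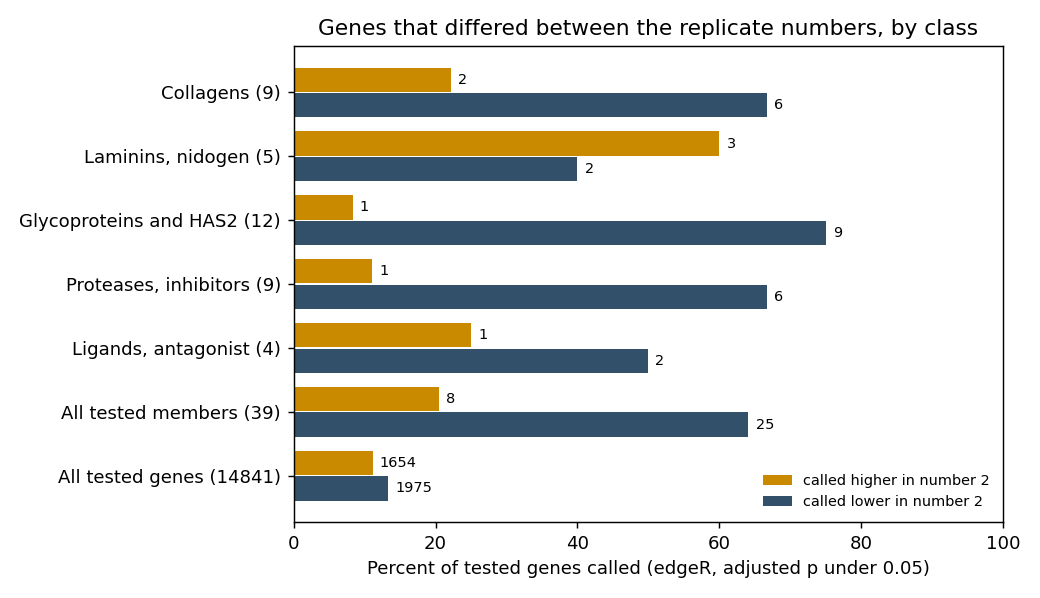
Percent of the tested genes of each class called higher (yellow) or lower (blue) in libraries numbered 2 than in those numbered 1, with the number of genes at each bar and the number tested in parentheses. Over all members 8 were called higher and 25 lower of 39, beside 1654 and 1975 of 14841 over the whole table.

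Other genes of the same pathways, 138 of 160 of them tested, were called lower in number 2 in 50 cases and higher in 17. Of all tested genes 13.3% were called lower and 11.1% higher, and the 17 lie near that share. None of the 138 was called between the oils by edgeR without a block. At an unadjusted p under 0.05 by that test there were 5, near the 3.84% of all tested genes. Of 15 other collagens tested 5 were lower and 1 higher, among them COL13A1 (-1.04), COL27A1 (-0.58) and COL4A5 (-1.22). Of 12 other laminin and basement membrane genes 7 were lower and 2 higher, with the laminin alpha chains LAMA5 (-1.17) and LAMA1 (-1.67) and the heparan sulfate proteoglycan AGRN (-0.88) named by their p-values. Of 24 other glycoproteins and proteoglycans 6 were lower and 4 higher, with SPP1, or osteopontin, at -2.71 and the syndecans SDC4 and SDC1 at -0.98 and -0.63. Of 27 other proteases and inhibitors 9 were lower and 4 higher, with the membrane protease ADAM19 at -1.81 and the secreted protease inhibitor SERPINE2 at 0.53.

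Of 21 receptors, SMADs and latency genes of the TGF-beta and activin pathway 9 were lower in number 2 and 1 higher, led by the receptor TGFBR2 (-0.82), the follistatin-like FSTL1 (-0.82) and the latent TGF-beta binding protein LTBP1 (-1.57). Of 22 TGF-beta target genes 8 were lower and 1 higher. The lists of this paragraph too stand beside 13.3% of all tested genes called lower and 11.1% called higher. PMEPA1, a feedback inhibitor of TGF-beta signalling, had -2.27 and the cell cycle inhibitor CDKN1A, which other pathways also raise, -1.72. Of 20 matrix receptors 9 were lower and 4 higher, with the integrin alpha chains ITGA2 and ITGA5 at -0.92 and -0.86 and the collagen receptor DDR2 at 1.02.

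Between the oils, genes of these lists among those with the smallest p were as follows. The basement membrane protein SMOC1 lay at 11.6 and 7.03 CPM with the ozonated oil and at 5.56 and 3.04 CPM with olive oil (1.11 ± 0.43, SE). Among TGF-beta targets, ANGPTL4, a secreted inhibitor of lipoprotein lipase, lay at 76.2 and 67.2 CPM with the ozonated oil and at 36.4 and 30.7 CPM with olive oil (1.10 ± 0.14, SE). The matricellular protein CCN2 had -1.60 ± 0.22 (SE). The signal transducer SMAD3 had -0.67 ± 0.32 (SE), and the follistatin-like FSTL3 -0.45 ± 0.22 (SE). The sheddase ADAM17 and the membrane protease MMP16 had 0.35 ± 0.13 and 0.45 ± 0.18 (SE), and the melanoma proteoglycan CSPG4 0.38 ± 0.15 (SE). Of the 20 matrix receptors 14 were higher within both numbers and 2 lower, against 31.6% and 31.1% of all tested genes, with the integrin beta chain ITGB1 at 0.18 ± 0.10 (SE). Of 15 other collagens 6 were lower within both numbers and 5 higher, with COL18A1 at -0.35 ± 0.19 (SE).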

How the data were processed

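Whole-cell RNA of 4 A375 libraries was sequenced, 2 with ozonated olive oil and 2 with olive oil. The deposited table holds raw counts per gene, made by the authors, as whole numbers with 1 column per library. Per the submitters' processing notes, which name tools without saying what each did, the build was hg38 and the software HISAT2 2.1.0, SAMtools 1.9, StringTie 1.3.4d, edgeR, bedtools 2.27.1, FastQC 0.11.7 and bcl2fastq. The libraries were made with a directional kit per the labels, but which annotation and which strand-aware or strand-blind counter were used is not given in the sources used here, and overlapping antisense genes may share reads.

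The tests used edgeR 4.0.16 under R 4.3.3: filterByExpr, TMM scaling (factors 0.972 to 1.017) and the quasi-likelihood test, two-sided, fitted on all 14841 genes calling genes at 0.05 after Benjamini-Hochberg adjustment. The oils were compared without a block, and the replicate numbers with the oil as a term. Each SE is the size of the log2 fold change over the square root of F. Within-number differences are of log2 CPM with a prior count of 2, 1 library against 1, with no test. With 2 against 2 libraries no exact two-sided permutation p can fall below 0.333. DESeq2 1.42.0 and limma 3.58.1 were alternatives, beside other scalings, no filter, a block and leaving out each library. Lengths are the longest GENCODE transcripts, and positions are RefSeq's on GRCh38.p14.

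The members and lists were chosen with earlier results of these data known. Values by library are given for the 12 members with the largest difference in each comparison, the 2 most abundant of each class and THBS1, TGFBI and FN1. Of each pathway list, fitted values are given for genes among the 3 with the smallest p in each comparison, for a few also by library. Some genes that this rule names are not reported here. A few further members are given by library where a class or pair is described.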

Additional observations from a re-analysis of the deposited data

How the results depend on the processing

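Depth limits the lowest tested members (POSTN, TGFB2, COL1A1, HAS2), which have few counts. Between the oils edgeR called 0 genes and 0 members, DESeq2 called 65 and 2, and the other scalings, no filter and limma-voom 0 and 0. The labels do not say that a replicate number marks a shared culture or day, but libraries of the same number deviated together (r = 0.672 over genes). With the replicate number as a block, edgeR called 841 genes (5.67% of all tested genes) and 7 members: ADAMTS6, TGFB2, ESM1, HAS2, THBS1 and TIMP3 lower and FN1 higher. Values near 0 turned sign: LAMB3, MMP9, INHBA and FST to 0.062, 0.052, 0.030 and -0.0047 with the block and to 0.078, 0.51, 0.054 and -0.021 with limma-voom, and COL6A3, MMP2 and FST to -0.031, -0.011 and -0.031 with library totals only. Between the numbers 3629 genes and 33 members were called, and 948 genes and 19 members without the oil as a term. DESeq2 called 1714 genes and 29 members, with the calls of COL4A2, COL6A2, LAMB1 and SPARC lost. The members' median was -0.40 with library totals only.

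Leaving out each library in turn, which makes the numbers unequal between the oils so that oil and number mix, gave 0 to 4 genes and 0 members for the oils (median of members -0.30 to 0.25), and 184 to 859 genes and 13 to 20 members for the numbers (median -0.43 to -0.37). Fitted oil values that changed sign ranged over BGN -0.54 to 1.11, COL12A1 -0.51 to 0.10, COL1A1 -0.61 to 0.14, COL4A1 -0.28 to 0.10, COL4A2 -0.057 to 0.17, COL5A1 -1.18 to 1.13, COL5A2 -0.53 to 0.34, COL6A3 -1.18 to 1.25, FBN1 -0.44 to 0.31, FN1 -0.57 to 1.32, FST -2.18 to 2.15, HAS2 -3.14 to 0.091, INHBA -0.80 to 1.02, LAMA4 -0.23 to 0.43, LAMB1 -0.0095 to 0.25, LAMB3 -1.34 to 1.53, LAMC1 -0.14 to 0.31, LTBP2 -1.86 to 1.08, MMP1 -1.21 to 1.63, MMP14 -0.43 to 0.93, MMP2 -0.87 to 0.89, MMP9 -5.19 to 6.17, NID1 -0.26 to 0.44, POSTN -0.23 to 0.61, SPARC -0.020 to 0.17, TGFB1 -0.099 to 0.48, TGFBI -1.31 to 1.40, TIMP1 -0.15 to 0.36, TIMP2 -0.30 to 0.12, TIMP3 -1.56 to 0.96, VCAN -1.64 to 1.57. Those of ADAMTS6, TGFB2, ESM1 and THBS1 stayed negative, and those of ADAMTS1, COL6A1, COL6A2 and TNC stayed positive. For the numbers the ranges were ADAMTS1 -0.65 to 0.018, ADAMTS6 -1.18 to 0.65, POSTN -0.18 to 0.62, TGFB2 -0.60 to 1.14, THBS1 -1.07 to 0.20, TNC -0.10 to 0.046. The causes of these shifts were not tested beyond this construction.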
